A study of Canis lupus familiaris with 32 samples.

Results

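ENSCAFG00000008524 and ENSCAFG00000017522 are 2 of the 24580 dog genes measured in hip soft tissues, and they were followed over all 32 libraries and 7 groups of the series. They were chosen by their fragment counts in earlier results of these data, which were high in hip joint capsule and near 0 in the teres ligament. The difference between those tissues is therefore given as a description with no test. The data list genes by Ensembl ID only, and the tables used here pair neither ID with a gene name, so no function is given to either gene.

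The hip joint capsule is a fibrous sleeve with an inner synovial lining, which makes joint fluid, and it carries blood vessels, nerves and some fat. The teres ligament is a cord of dense collagen that runs inside the joint from the acetabulum to the femoral head. In hip dysplasia the joint develops with too much looseness, and both structures help to hold the femoral head in its socket.

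RNA was sequenced after removal of ribosomal RNA, with strand-specific libraries, from 25 dogs, and 7 of these dogs gave both tissues. The groups were embryonic hip (n = 3), capsule of young dogs below 1 month of age (n = 6), capsule of affected dogs with hip dysplasia (n = 4, of which 3 were 4 months old and 1 was adult) and capsule of adult control dogs (n = 5). The ligament groups were young dogs below 1 month (n = 4), affected dogs (n = 7, of which 3 were 4 months old and 4 were adult) and adult controls (n = 3). The embryonic samples were whole hip, so stage and tissue differ together there. The sources used here give no breed, sex or treatment, and the labelled tissues could not be checked against defining markers without gene names. By the dog identifiers in the labels, no dog gave 2 libraries to the same group. The 3 affected dogs aged 4 months (09A01, 09A02, 09A05) and the dog of young replicate 2 (09A03) have identifiers that begin alike. So do the embryos (C3555, C3556, C3557). Whether these dogs are related is not given. Library totals ran from 2857235 to 9895143 fragments, with a median of 4993068.

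In capsule, ENSCAFG00000008524 was present in every library but at very unequal levels. Levels here are CPM, fragments relative to the library total after TMM scaling. The 6 young capsules had 499, 3549, 361, 184, 636 and 182 CPM. The 4 affected capsules had 185, 825, 749 and 1413 CPM. The 5 control capsules had 62.3, 127, 1775, 41.9 and 626 CPM. The groups overlapped throughout, and the adult affected capsule, at 185 CPM, lay well below the 3 affected capsules from dogs aged 4 months. Embryonic hip was far more even, at 617, 670 and 527 CPM, inside the range of each of the 3 capsule groups.

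ENSCAFG00000017522 had a different distribution. The 6 young capsules had 4124, 658, 2884, 716, 7319 and 1366 CPM. The 4 affected capsules had 3.11, 21.2, 25.3 and 166 CPM, and the 5 control capsules had 2.28, 2.17, 36.1, 11.7 and 50.5 CPM. Every young capsule lay above every affected and control capsule, while affected and control capsules overlapped. Embryonic hip, at 79.2, 72 and 49.3 CPM, lay below every young capsule. In the young capsule with the highest value this gene took 0.571% of all fragments and ranked 17 of the 24580 genes listed. In the lowest control capsule it had 11 fragments.

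**Figure D1:**
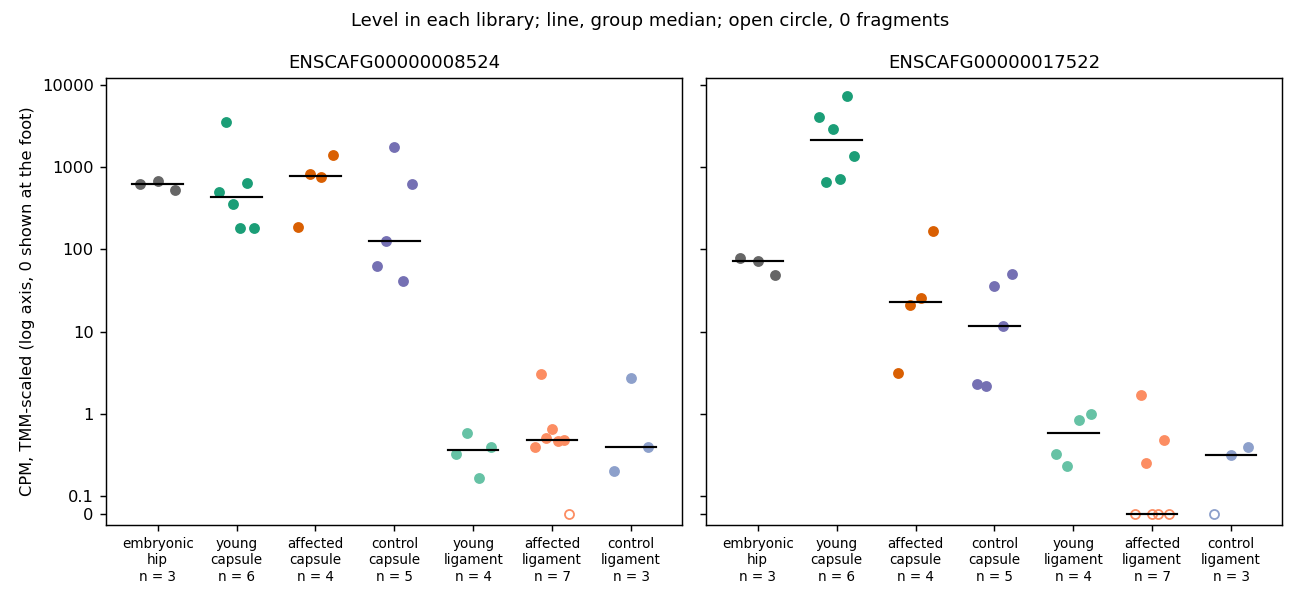
Level of each gene in every library, in CPM on a log axis, by group, with a line at the group median and open circles for libraries with 0 fragments. ENSCAFG00000008524 spans overlapping ranges in embryonic hip and all capsule groups, whereas the 6 young capsules stand above all others for ENSCAFG00000017522, and ligament values are at most 3.02 CPM.

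In ligament both genes were counted in single fragments. ENSCAFG00000008524 had 2, 5, 1 and 2 fragments in the young ligaments. It had 2, 9, 2, 4, 2, 2 and 0 fragments in the affected ligaments and 1, 17 and 2 in the controls. Pooled over a group, this was 0.39 CPM in young ligaments (95% exact Poisson interval 0.187 to 0.717), 0.657 CPM in affected ligaments (0.407 to 1) and 1.23 CPM in control ligaments (0.753 to 1.9). Of the 20 control fragments, 17 came from control replicate 2.

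ENSCAFG00000017522 had 2, 2, 5 and 5 fragments in the young ligaments, 0, 5, 1, 0, 0, 2 and 0 in the affected ligaments and 0, 2 and 2 in the controls. The pooled levels were 0.546 CPM in young ligaments (0.298 to 0.915), 0.25 CPM in affected ligaments (0.108 to 0.493) and 0.247 CPM in control ligaments (0.0672 to 0.631). It was at 0 in 5 of the 14 ligaments, and ENSCAFG00000008524 was at 0 in 1. These intervals cover counting error only and leave out differences between dogs. The libraries carry no molecular identifiers, so copies of 1 molecule could not be told apart. A ligament library with 0 fragments allows up to 3 fragments.

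By group median, ENSCAFG00000008524 was ordered as affected capsule (787 CPM), embryonic hip (617 CPM), young capsule (430 CPM) and control capsule (127 CPM). Neighbours in that order overlapped in their ranges. The ligament medians followed at 0.477 CPM in affected, 0.4 CPM in control and 0.365 CPM in young dogs, again with overlap. The gap lay between tissues, with 41.9 CPM in the lowest capsule against 3.02 CPM in the highest ligament. For ENSCAFG00000017522 the order was young capsule (2125 CPM), embryonic hip (72 CPM), affected capsule (23.2 CPM) and control capsule (11.7 CPM). Young capsule did not overlap with its neighbour, whereas embryonic hip overlapped with affected and control capsule. Young ligament (0.584 CPM), control ligament (0.319 CPM) and affected ligament (a median of 0) came last and overlapped.

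The description of both genes as capsule genes holds to unequal degrees. All 15 capsules had more than 10 times the highest ligament value of ENSCAFG00000008524, but 11 of 15 did for ENSCAFG00000017522. For that gene the lowest capsule had 2.17 CPM, against 1.67 CPM in the highest ligament, and the other capsules under this mark were 2 controls and the adult affected dog. In bulk tissue, fewer cells of a type and less RNA per cell cannot be told apart.

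The 7 dogs that gave both tissues showed the contrast within an animal. Pooled over their 7 capsules ENSCAFG00000008524 had 45332 fragments, against 14 in their 7 ligaments, a ratio of 3418 relative to scaled library size (95% counting interval 2037 to 6252). The lowest single ratio, 455 (126 to 3762), came from a young dog. In 1 affected dog with 0 ligament fragments, capsule was at least 2563-fold higher, taken against a floor of 3 fragments. ENSCAFG00000017522 had 37056 fragments in the capsules and 11 in the ligaments, a ratio of 11.8 on the log2 scale (95% counting interval of the ratio itself 1987 to 7123). Without the dog that gave young capsule 1, the ratio was 1451.

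The within-dog ratios of ENSCAFG00000017522 differed widely. The 3 young dogs had ratios of 12512 (95% counting interval 3463 to 103324), 2837 (785 to 23438) and 1366 (585 to 4209). These rest on 2, 2 and 5 ligament fragments, and their intervals overlap. Among the 3 affected dogs aged 4 months, 1 had a ratio of 53 (14.4 to 442), and the other two, with 0 ligament fragments, were at least 30.2-fold and 301-fold higher in capsule. The control dog was at least 59.3-fold higher. Over all libraries of a group, the capsule to ligament ratio of this gene was 5247 in young dogs (95% counting interval 3127 to 9598). It was 207 (104 to 480) in affected and 91.6 (35.6 to 337.5) in control dogs. The affected and control intervals overlap, so no order of these groups is read. The affected ratio was 71.1 without affected capsule 4, which held 703 of the 957 capsule fragments, and 499 without affected ligament 2, and the control ratio was 58.1 without control capsule 5. The ratio of ENSCAFG00000008524 was 2356 in young, 1226 in affected and 477 in control dogs. The control ratio was 1950 (95% counting interval 667 to 9456) without control ligament 2, and 197 without control capsule 3. The young ratio was 963 without young capsule 2, and the affected ratio was 1946 without affected ligament 2, so no order of the groups is read from this gene.

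**Figure D2:**
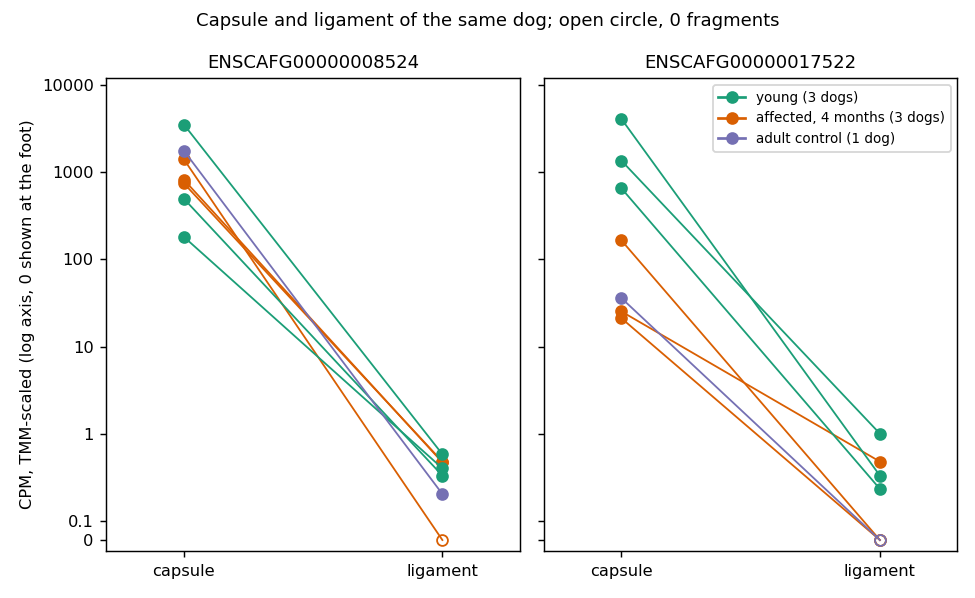
Capsule and ligament levels of each gene in the 7 dogs that gave both, in CPM on a log axis, with 1 line per dog and open circles for 0 fragments. All capsule points stand above all ligament points, and for ENSCAFG00000017522 the 3 young capsules start highest.

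Among the 11046 genes with a mean of at least 5 CPM over the 15 capsules, ENSCAFG00000017522 had the highest ratio of pooled capsule to pooled ligament level, 3503 (2228 without young capsule 5), and ENSCAFG00000008524 held place 8 with 1137. The median gene had a ratio of 0.985. These places describe the values that chose the genes and test nothing.

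The age comparison within capsule set young dogs against adult controls and did not use ligament. It is not free of the choice of genes, which were picked for high capsule counts. Young capsules held 85804 of the 87264 capsule fragments of ENSCAFG00000017522. Tests of this gene that involve young capsules, here and below, therefore reuse values that helped to choose it. Their p-values and ranks are given as description and are not independent evidence of a difference with age or stage. Both genes passed the filter on low counts in this and the other 2 capsule comparisons. ENSCAFG00000017522 was higher in young capsules, which averaged 2844 ± 2575 CPM (SD, n = 6), against 20.5 ± 21.7 CPM (n = 5) in control capsules. The difference was 136-fold (log2 fold change 7.09, SE 1.22, edgeR adjusted p = 0.0015). All 6 young libraries exceeded all 5 controls. An exact two-sided permutation test of log2 CPM gave p = 0.00216, the lowest this design allows (adjusted over 6 tests 0.013). How many other genes separate the groups as fully was not counted, here or for embryonic hip below. Of 12589 genes tested, 38.4% were called and 18.8% were called higher, so a call by itself is common here. This fold change was number 9 of the 12589 when ranked from the top, a place that the choice of gene may have raised. Without control replicate 5 the fold was 211.

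ENSCAFG00000008524 stood at 902 ± 1309 CPM (mean ± SD, n = 6) in young capsules, against 526 ± 738 CPM (n = 5) in those of controls, a difference smaller than the spread between replicates (log2 0.78, SE 1.15, edgeR adjusted p = 0.625). The size and direction of that change rested on single libraries. Without young replicate 2, at 3549 CPM, the log2 change was -0.51 (SE 1). Without control replicate 3, at 1775 CPM, it was 2.06 (SE 1.18). The young median was the higher, at 430 CPM against 127 CPM. The difference of mean log2 CPM was 1.24 (exact permutation p = 0.31).

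Embryonic hip was set against young capsule to follow stage around birth. ENSCAFG00000017522 stood at 66.8 ± 15.6 CPM (mean ± SD, n = 3) in embryonic hip, against 2844 ± 2575 CPM (n = 6) in young capsules (log2 -5.46, SE 1.05, edgeR adjusted p = 0.0036). It was thus 44-fold lower in embryonic hip, with no overlap between the groups (exact permutation p = 0.0119, which is the lowest this design allows, adjusted over 6 tests 0.0357). Of 13585 genes tested, 43.1% were called and 22.9% were called lower. From the bottom of the fold changes this gene was number 27. ENSCAFG00000008524 averaged 605 ± 72.6 CPM in embryonic hip and 902 ± 1309 CPM in young capsules and was not called (log2 -0.63, SE 1.01, edgeR adjusted p = 0.649). Without young replicate 2 its sign turned, to log2 0.66 (SE 0.43). With embryonic hip as whole tissue, stage and tissue cannot be told apart in either value.

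Taking embryonic hip, young capsule and adult control capsule in order, ENSCAFG00000017522 averaged 66.8, 2844 and 20.5 CPM, with its highest level in the young dogs. ENSCAFG00000008524 averaged 605, 902 and 526 CPM over the same stages, but its medians were 617, 430 and 127 CPM. Its means lean on young replicate 2 (3549 CPM) and control replicate 3 (1775 CPM), so no course over the stages is read from them. For both genes, embryonic hip also differs from the capsules in tissue.

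The case and control comparison asked whether either gene differs in the capsule of dysplastic hips. Neither was called by edgeR or by DESeq2, in a comparison in which edgeR called 0.236% of 12718 genes. ENSCAFG00000008524 averaged 793 ± 502 CPM (SD, n = 4) in affected and 526 ± 738 CPM (n = 5) in control capsules (log2 0.61, SE 1.01, edgeR adjusted p = 0.997). ENSCAFG00000017522 averaged 53.9 ± 75.3 CPM in affected and 20.5 ± 21.7 CPM in control capsules (log2 1.39, SE 1.08, edgeR adjusted p = 0.99). The affected mean of this gene rests on affected replicate 4, at 166 CPM, and without that library the log2 change was -0.31 (SE 1.08). Age and disease are entangled here, since the controls were all adults and 3 of the 4 affected dogs were 4 months old. A fit with age class as a term, in which only the 1 adult affected library informs the disease effect, gave log2 changes of -1.49 (SE 1.91) and -2.71 (SE 2.2), and neither was called.

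**Figure D3:**
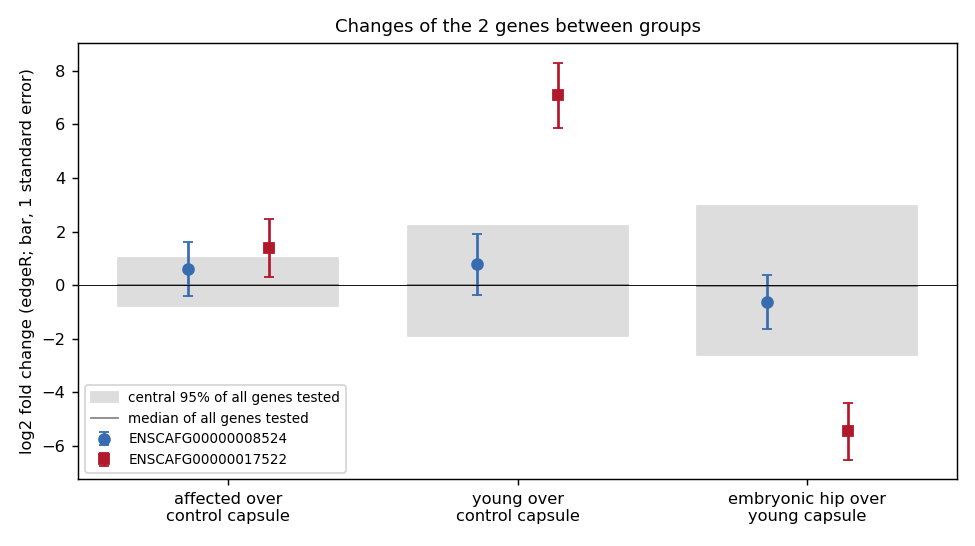
Log2 fold changes of both genes from edgeR, with 1 standard error, over grey bands for the central 95% of all genes tested in each comparison. ENSCAFG00000017522 lies outside all 3 bands, although in affected over control capsule, at 1.39, it was not called, and ENSCAFG00000008524 lies inside all 3.

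Within ligament neither gene passed the filter on low counts, so only pooled fragments were compared. ENSCAFG00000008524 had 21 fragments in affected ligaments, against 20 in controls, which is a ratio of 0.533 (95% counting interval 0.275 to 1.04). This ratio was 2.18 without control replicate 2 and 0.336 without affected replicate 2. In young ligaments it had 10 fragments against the same 20, a ratio of 0.316 (0.132 to 0.707), which was 1.29 without control replicate 2. ENSCAFG00000017522 had 8 fragments in affected ligaments, against 4 in controls, which is a ratio of 1.01 (0.272 to 4.6), or 0.42 without affected replicate 2. In young ligaments it had 14 against 4, a ratio of 2.21 (0.695 to 9.23). With the filter removed, edgeR adjusted p-values ran from 0.361 to 0.964 over these 4 comparisons. Whether the age difference of ENSCAFG00000017522 in capsule is larger than in ligament was not tested.

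Within the 3 capsule groups, dogs differed more in these genes than in most others, except for ENSCAFG00000008524 among the affected dogs aged 4 months. In control capsules the highest value of ENSCAFG00000008524 was 42.4 times the lowest, whereas the median was 1.81 times over the 10840 genes with a mean of at least 5 CPM and no 0 there. Only 0.295% of those genes spread as widely. Without control replicate 3 its spread there was 15-fold (0.639% of genes). In young capsules it spread 19.5-fold, as 0.349% of genes did, or 3.49-fold without young replicate 2 (4.55%). In affected capsules it spread 7.64-fold (2.78% of genes), a group that joins 1 adult to 3 dogs aged 4 months. Without the adult the spread was 1.89-fold, near the median of 1.86, and without affected replicate 4 it was 4.46-fold (5% of genes). In embryonic hip it spread 1.27-fold, near the median of 1.23. ENSCAFG00000017522 spread 11.1-fold in young capsules (0.983% of genes), 53.3-fold in affected capsules (0.182%) and 23.3-fold in control capsules (0.738%). The affected spread was 7.84-fold without the adult (1.21%) and 8.14-fold without affected replicate 4 (1.43%), and the young spread was 6.27-fold without young replicate 5 (2.39%). Its spread in embryonic hip was 1.61-fold (11% of genes). How each capsule was trimmed and what cells it held are not given, and their part in this spread was not tested.

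The genes were also compared with each other within capsule. Over the 9 affected and control capsules, the log2 CPM values correlated at Pearson r = 0.779 (exact permutation p = 0.0177, adjusted over 2 relations 0.0353) and Spearman rho = 0.733 (exact permutation p = 0.0311, adjusted 0.0622). Without the 2 libraries farthest from the median of ENSCAFG00000008524, r was 0.895 (n = 7). With 1 library left out r was 0.72 to 0.904, and the adjusted exact permutation p missed the threshold of 0.05 in 7 of 9 cases (up to 0.0978), all but those without affected replicate 1 or control replicate 4. The smaller groups within these 9 libraries are too few for a value of their own. Over the 6 young capsules r was -0.108 (exact permutation p = 0.872) and rho 0.0857 (exact permutation p = 0.919). That value rested on young replicate 2, which was highest of its group for ENSCAFG00000008524 and lowest for ENSCAFG00000017522. Without it r was 0.964 (n = 5, exact permutation p = 0.0167), and without it and young replicate 6, the 2 farthest from the median, r was 0.995 (n = 4). This exclusion was made after the values were seen.

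**Figure D4:**
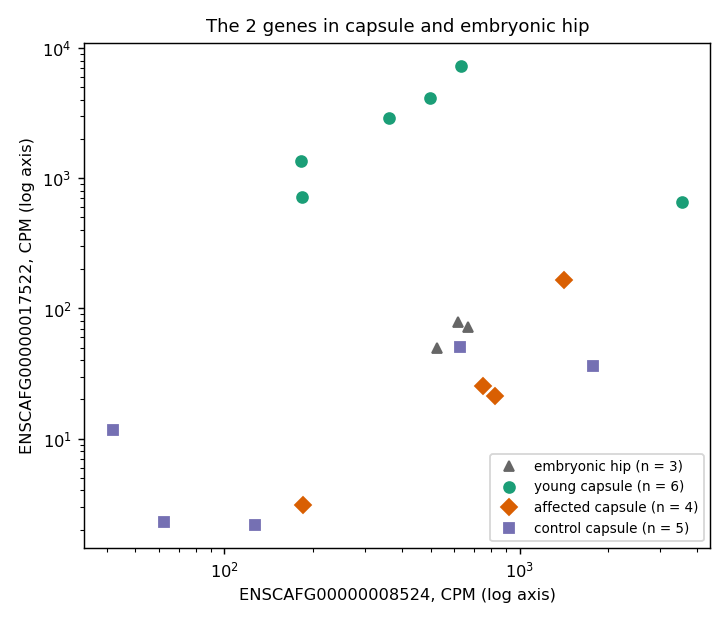
ENSCAFG00000017522 against ENSCAFG00000008524 in CPM on log axes, 1 point per library of embryonic hip and capsule. Older capsules run roughly along 1 diagonal, 5 young capsules run along another one above it, and young replicate 2 lies apart at 3549 and 658 CPM.

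The balance of the genes shifted with age. The log2 ratio of ENSCAFG00000017522 to ENSCAFG00000008524 (0.5 CPM added to each) had a mean of 2 ± 2.23 (SD, n = 6) in young capsules, against -4.22 ± 1.59 (n = 5) in those of controls. This difference of 6.22 exceeded the spread between libraries (exact two-sided permutation p = 0.00649, adjusted over 3 tests 0.0179). The groups still overlapped, with a lowest young ratio of -2.431 against a highest control ratio of -1.795. In embryonic hip the ratio averaged -3.19 ± 0.227 (n = 3), a difference of -5.19 from young capsules (exact permutation p = 0.0119, again the lowest possible, adjusted 0.0179). With embryonic replicate 1, 2 or 3 or young replicate 1, 3, 5 or 6 left out, that adjusted p was 0.0536, with differences of -5.31 to -4.89. With an embryonic library left out, even the lowest possible p misses the threshold after adjustment, so those misses do not bear on stability. In affected capsules the log2 ratio averaged -4.72 ± 1.14 (n = 4). The difference of -0.50 from controls was smaller than the spread (exact permutation p = 0.603). On the authors' FPKM scale, which corrects for gene length, ENSCAFG00000017522 averaged 490 ± 446 FPKM and ENSCAFG00000008524 averaged 491 ± 721 FPKM in young capsules. These near-equal means rested on young replicate 2, at 116 FPKM for ENSCAFG00000017522 and 1949 FPKM for ENSCAFG00000008524. In the other 5 young capsules ENSCAFG00000017522 was the higher of the genes, with means of 564 ± 455 FPKM against 199 ± 107.6 FPKM (SD, n = 5). In control capsules ENSCAFG00000017522 averaged 3.58 ± 3.79 FPKM and ENSCAFG00000008524 averaged 285 ± 400 FPKM.

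For each gene, the 2 genes most like it were taken by Pearson correlation of log2 CPM over the 15 capsules, among genes with a mean of at least 5 CPM there. They are given as a description. ENSCAFG00000009404 followed ENSCAFG00000008524 most closely, at r = 0.98 over the capsules, 0.976 over the 9 older ones and 0.994 over the 6 young ones. It averaged 531 CPM in young, 371 CPM in affected and 251 CPM in control capsules and 351 CPM in embryonic hip. It was not as scarce in ligament, at 6.53 CPM in young, 4.97 CPM in affected and 3.07 CPM in control dogs. ENSCAFG00000012517 came next, at r = 0.951. Its level in embryonic hip, 1.57 CPM, was far under its 41.1 CPM in young capsules, unlike that of ENSCAFG00000008524.

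ENSCAFG00000008319 (r = 0.957) and ENSCAFG00000010081 (r = 0.956) were most like ENSCAFG00000017522. The young and the older capsules form separate clusters for this gene, so r was also taken within each. ENSCAFG00000008319 had r = 0.742 within the 9 older and 0.92 within the 6 young capsules, and ENSCAFG00000010081 had 0.862 and 0.958. ENSCAFG00000008319 averaged 15.4 CPM in young, 1.91 CPM in affected and 0.616 CPM in control capsules but 71 CPM in embryonic hip, above its young level. It reached at most 4.96 CPM in the older capsules, so its r there rests on low values. In ligament it averaged 2.66 CPM in young, 0.599 CPM in affected and 0.455 CPM in control dogs. ENSCAFG00000010081 averaged 717 CPM in young, 59.6 CPM in affected and 49.6 CPM in control capsules and 318 CPM in embryonic hip, and 2.61 CPM in young, 0.612 CPM in affected and 0.12 CPM in control ligaments. Between themselves the 2 chosen genes correlated at 0.377 over the 15 capsules, and by this measure ENSCAFG00000017522 held place 1185 among the genes most like ENSCAFG00000008524.

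**Figure D5:**
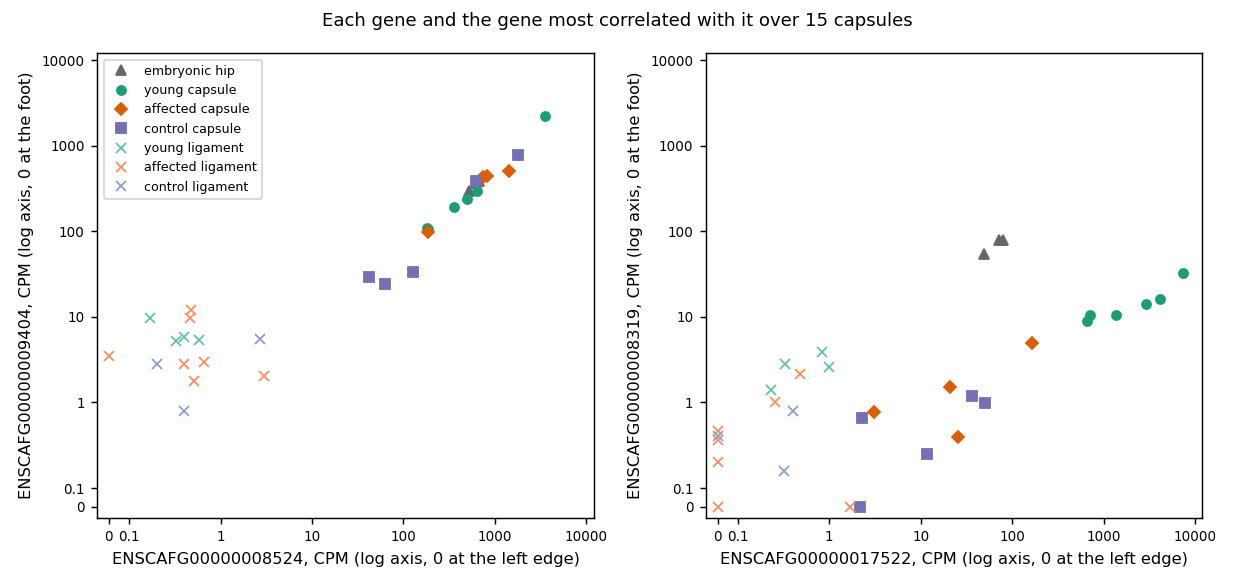
Each gene (horizontal) against the gene most correlated with it over the 15 capsules (vertical), in CPM on log axes, with all 32 libraries shown. ENSCAFG00000009404 tracks ENSCAFG00000008524 across capsule and embryonic hip, at r = 0.98 over the capsules, whereas embryonic hip lies off the trend of ENSCAFG00000008319 with ENSCAFG00000017522.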

How the data were processed

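The submitters' processing notes name Cuffdiff 2.2.1, TopHat2 2.0.13, Bowtie2 2.2 and cutadapt 1.8, and the genome build canFam3. Neither the annotation release nor how counting treated strand is given in the sources used here. The authors deposited an estimated count of fragments per gene and library, before scaling per the file headers, and FPKM values. Of the estimated counts, 0.332% were more than 1e-06 off a whole number, and all were rounded before testing. Near-identical or overlapping genes could not be recognised from IDs, so shared fragments remain uncertain. No ID matched the reference gene table (0 matched), so the marker lists by symbol were not tested.

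Each comparison was fitted over all genes of the groups compared with edgeR 4.0.16 in R 4.3.3 (filterByExpr, TMM, robust quasi-likelihood F test, Benjamini-Hochberg adjustment, calls at an adjusted p under 0.05). Standard errors were derived from the F statistic. Printed CPM values use TMM over all 32 libraries. Alternatives used DESeq2 1.42.0 and limma 3.58.1 on log2(FPKM + 0.1). Tests were tested on simulated data. The genes, lists and tests were chosen with earlier results of these data known. The other named genes are the 2 most correlated with each chosen gene. Correlations between the chosen genes, ratios by group, and spreads, group ratios and FPKM means without single libraries were added after seeing the data.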

Additional observations from a re-analysis of the deposited data

Results flagged for a closer look

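Within groups of 4 to 10 libraries, 4 values stood farther from the rest than Dixon's 95% limit, of 10 combinations of gene and group examined. Chance gives about 1 in 20 only where values are normally distributed. Unlogged CPM values and small counts need not be, so the number of flagged values is not read against that rate. In young replicate 2, ENSCAFG00000008524 had 3549 CPM in capsule, against 636 CPM in the next young capsule. In affected replicate 4, ENSCAFG00000017522 had 165.9 CPM in capsule, against 25.3 CPM in the next affected one. In affected replicate 2, the ligament held 3.015 CPM of ENSCAFG00000008524, against 0.654 CPM in the next affected ligament, and 1.675 CPM of ENSCAFG00000017522, against 0.477 CPM. These ligament values rest on 9 and 5 fragments.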

How the results depend on the processing

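The higher level of ENSCAFG00000017522 in young than in control capsules stayed called in all 18 alternatives run, with log2 changes of 6.54 to 7.72 when 1 library was left out. Its lower level in embryonic hip than in young capsule stayed called in all 16 alternatives (-5.67 to -4.9 with 1 library left out). With the replicate number as a block, these were 7.43 and -4.99. Every alternative reuses young capsule values that helped to choose this gene, so staying called is not independent evidence. Between the groups compared, numbers in the titles do not mark shared dogs. In none of the 5 comparisons did every same-numbered pair deviate together (correlations of -0.373 to 0.509), and no call on either gene changed under the block.

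ENSCAFG00000008524 was called in no capsule comparison under any alternative. Its affected to control log2 change was -1.49 with age class as a covariate and 0.16 to 1.89 with 1 library left out. Its young to control change ran from -0.51 to 2.06 with 1 library left out. Its embryonic to young change ran from -0.84 to 0.66, and was 0.30 both with limma on log2(FPKM + 0.1) and as the difference of mean log2 CPM. That of ENSCAFG00000017522 in affected against control capsules was -2.71 with age class and -0.31 to 2.03 with 1 library left out. The cause was not tested.

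The ratio of ENSCAFG00000008524 in affected against control ligaments was 1.27 under the replicate block and 0.336 to 2.18 with 1 library left out. In young against control ligaments it was 0.231 to 1.29. Its capsule to ligament ratio was 1137 over all libraries, 1226 in affected and 477.2 in control dogs, and 2874 to 4016 with 1 dog left out. That of ENSCAFG00000017522 was 206.6 in affected and 91.6 in control dogs, and 1451 to 5311 with 1 dog left out.

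With 1 library left out, the shift in the log2 ratio of the genes was -1.05 to 0.105 between affected and control capsules. It was -6.08 to -4.89 between embryonic hip and young capsule, where 7 of 9 such tests missed the threshold (adjusted exact permutation p up to 0.0536). The tests with an embryonic library left out could not reach the threshold, as too few splits remain, so their misses do not bear on stability. The correlation of the genes in older capsules ran from 0.72 to 0.904, with 7 of 9 adjusted p-values over the threshold. The young correlation ran from -0.422 to 0.964, and was 0.995 without the 2 farthest libraries. The count of genes called in affected capsules, 30, was 47 without a filter, 138 with DESeq2, 10 with limma, 63 in 1 fit of all libraries, 6 with the block, 11 with age class and 2 to 41 with 1 library left out. Ligament counts of 0 to 17 fragments limit what could be seen there.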
